A study of Rattus norvegicus with 7 samples.

Results

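The miR-34 family in rat skeletal muscle cells is described here by its 5p miRNAs, rno-miR-34a-5p, rno-miR-34b-5p and rno-miR-34c-5p. They were found by name among the non-control spots of a rat miRNA array, and all their probes were used, with spots marked as outliers left out. All 3 were on the array, out of 719 miRNAs in all. The family was chosen by name but with the outcome of the comparison between IL-6 and control already known, so its fold changes are given as a description, without p-values. Where a member is said to have passed or missed the limma threshold, that too is a description and not evidence.

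The cells were rat primary skeletal muscle cells, isolated from limb muscle of newborn rats, bought frozen from a culture collection and taken through differentiation in a medium with little horse serum. All 7 samples were total RNA taken on day 11. Of these, 3 were untreated controls and 4 were cultures given recombinant IL-6 at 1 ng/ml (interleukin-6 is a signalling protein of inflammation that working muscle also secretes), as the titles and the series design state. The growth text of the control samples also names IL-6, so the group of each sample rests on its title. The labels do not say whether replicates are separate cultures, so the spread between samples may be technical.

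MicroRNAs are short RNAs that guide a silencing complex to messenger RNAs, mainly through their seed, the bases near the 5′ end. The miR-34 genes are direct transcriptional targets of p53, the tumour suppressor that responds to DNA damage and other stress. Their miRNAs silence messages for cell-cycle and survival proteins, among them Cdk6, Met and Bcl2. miR-34a has a gene of its own and is made in many tissues, while miR-34b and miR-34c come from 1 shared primary transcript and are best known from testis and ciliated epithelium.

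The mature sequences are shown because the family is defined by its seed and because miR-34b-5p and miR-34c-5p are close enough to matter for probes. They come from RefSeq (GRCr8), are written 5′ to 3′, and have the seed, bases 2 to 8, in capitals.
miR-34a-5p: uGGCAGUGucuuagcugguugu
miR-34b-5p: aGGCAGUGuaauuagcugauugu
miR-34c-5p: aGGCAGUGuaguuagcugauugc
miR-449a-5p: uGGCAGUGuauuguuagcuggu
miR-449c-5p: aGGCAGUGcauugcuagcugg
The seed was the same in all 5. Of the 719 miRNAs on the array, 651 were matched to a RefSeq sequence, and 5 of those held this seed: the 3 family members and miR-449a-5p and miR-449c-5p, which belong to a separate locus known from ciliated cells. miR-34b-5p and miR-34c-5p, both 23 bases long, were identical at 21 bases. From miR-34b-5p to miR-34c-5p the substitutions were A11G and U23C, counted from 1 at the 5′ end. miR-34a-5p, 22 bases long, aligned to miR-34b-5p with 19 identical bases, 3 mismatches and 1 gap, and to miR-34c-5p with 18 identical bases, 4 mismatches and 1 gap.

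Each member had 2 probes, and the brighter one was used for its level. These 3 probes are printed as the scanner files give them, in lower case, with capitals at the bases opposite the positions where miR-34b-5p and miR-34c-5p differ.
Probe of miR-34a-5p: acaaccagctaagacactgc
Probe of miR-34b-5p: AcaatcagctaaTtacactgcc
Probe of miR-34c-5p: GcaatcagctaaCtacactg
Each probe is the exact complement of its own miRNA, covering bases 3 to 22 of miR-34a-5p, 2 to 23 of miR-34b-5p and 4 to 23 of miR-34c-5p. The probes of miR-34c-5p mismatched miR-34b-5p at 2 bases, and the probes of miR-34b-5p mismatched miR-34c-5p at 2 bases. One of these mismatches lies at the end of the duplex. Signal from the one RNA on the other's probe was not tested, so their values may not be separate measurements. Against miR-34a-5p, the probes of miR-34b-5p and miR-34c-5p had 9 or 10 mismatches when no gap was allowed. With 1 gap, as given above, the whole miRNAs differ from miR-34a-5p by 3 or 4 mismatches. Signal from miR-34a-5p on these probes was not tested either.

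The files place the probe matches on rn4. The probe of miR-34a-5p lies on chromosome 5 from 167187919 to 167187937. That of miR-34b-5p lies on chromosome 8 from 54422585 to 54422605 and that of miR-34c-5p from 54422068 to 54422086, with 498 bases between them. The lower coordinate is written first for miR-34a-5p and last for the other members. No strand is read from that order. As written in the files, these intervals are 1 base shorter than the probes. In RefSeq's gene table of GRCr8, Mir34c and Mir34b are next to each other, with Hoatz on one side and Btg4 on the other. No annotation of rn4 was used here.

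The 7 arrays were on 1 slide with 1 scan time, and each carried 1730 miRNA probes. Detected miRNAs numbered 174 to 207 per array, 168 on all 7 and 510 on none. Control arrays filled one slide row and IL-6 arrays the other, and 0 rows held both groups, so the effects of treatment and of slide row cannot be told apart. No pair of arrays within a group was closer than IL-6 replicates 3 and 4, with an SD of 0.09 for their log2 difference over 181 miRNAs, against 0.12 to 0.23 for the other pairs. All 7 miRNAs of the skeletal muscle list were detected on no array, among them miR-1-3p, miR-133a-3p and miR-206-3p, so the labelled cell type was not seen in its defining miRNAs. Their summed scaled signal was 4.99 to 9.62 in the control arrays and 3.97 to 11.99 in the IL-6 arrays. The 5 miRNAs of the fibroblast and smooth muscle list were detected on all 7 arrays, with summed signals of 23367 to 25106 in controls and 20799 to 24089 with IL-6. The 7 miRNAs of the epithelial list, among them miR-449a-5p of ciliated cells, and those of endothelium (2) and nerve (2) were detected on none. miR-34b-5p and miR-34c-5p, known from ciliated cells as well, were not in that list and were detected on all 7 arrays. Of 4 blood miRNAs, 3 were detected on no array and none was tested. In such bulk RNA, fewer cells of a type and less RNA per cell cannot be told apart.

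miR-34c-5p was lower in every IL-6 array than in every control array, miR-34b-5p likewise, and miR-34a-5p was not. The log2 fold changes were -0.28 ± 0.04 for miR-34c-5p, -0.21 ± 0.07 for miR-34b-5p and 0.02 ± 0.04 for miR-34a-5p (SE from the limma fit, n = 3 control and n = 4 IL-6 arrays). On the linear scale the first was 17.5% lower and the second 13.6% lower. Levels are log2 of the background-subtracted intensity, divided by a factor for each array that sets its 75th percentile over 268 probes well above background on all arrays equal to the others'.

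**Figure D1:**
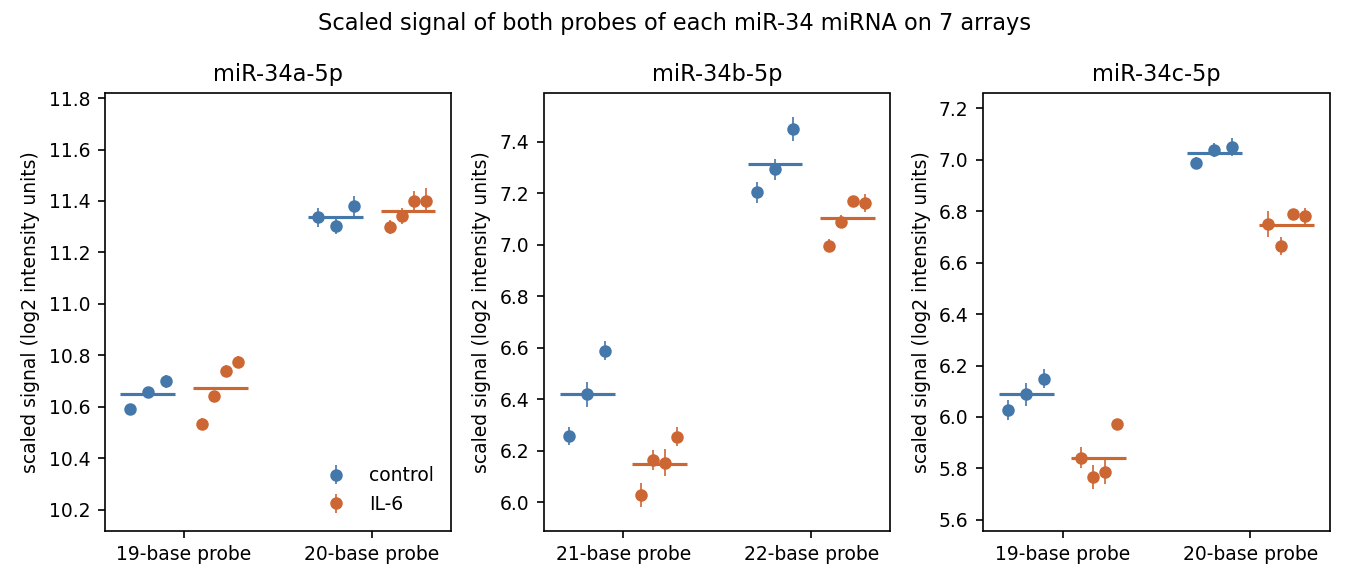
Scaled signal (log2 intensity units) of both probes of miR-34a-5p, miR-34b-5p and miR-34c-5p on the 3 control and 4 IL-6 arrays. Points are arrays, thin bars the standard error over the spots of a probe, and horizontal lines group means. Each panel has its own axis of equal span. Control and IL-6 points overlap for both probes of miR-34a-5p and are separate for both probes of the other two, with IL-6 below.

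For miR-34c-5p the scaled signal was 127, 131 and 132 intensity units in the controls and 108, 101, 111 and 110.1 with IL-6. The groups did not overlap, and every control lay above every IL-6 array. The log2 level was 7.02 ± 0.03 (SD, n = 3) in controls and 6.75 ± 0.06 (SD, n = 4) with IL-6. The difference of 0.28 between these means is several times either SD. Its shorter probe, of 19 bases, had a mean of 68.1 ± 2.89 units in controls and 57.4 ± 3.76 with IL-6, again without overlap, and a log2 difference of -0.25 ± 0.06 (SE).

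The separation of miR-34c-5p was present after scaling and not before. The unscaled signals were 108, 125 and 133 in the controls and 95.0, 127, 118 and 116 with IL-6, and these overlapped. IL-6 replicate 2 was the brightest array, with a scaling factor of 1.25, while control replicate 1 was the dimmest with 0.852 and IL-6 replicate 1 had 0.882. With no scaling the log2 fold change was -0.10, with spike-in scaling -0.09 and with the deposited value table -0.09. Over all tested miRNAs the median fold change was then 0.17, 0.18 and 0.20 in place of 0.02. Scaling by the 75th percentile over all probes gave -0.42 with a median of -0.12. The normexp background correction, with an offset of 50 units, gave -0.13 with a median of 0.08. Relative to that median, the value was -0.29 in the main setting and -0.31 to -0.21 over 24 alternatives.

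Among the 181 miRNAs tested, 8 were lower (4.42%) and 17 changed in either direction (9.39%) at a Benjamini-Hochberg adjusted p under 0.05 in limma, and 49 (27.1%) had an unadjusted p under 0.05. miR-34c-5p was among the 8, and miR-34b-5p and miR-34a-5p were not among the 17. Since the family was chosen with this outcome known, nothing is read from that count. The call of miR-34c-5p was lost in 11 of the 24 alternatives, including the fits without control replicate 1 (-0.30) and without control replicate 2 (-0.27), while its fold change was negative in all 24. It was also lost with slide column as a block (-0.25), where limma called 0 miRNAs in either direction and 52 had an unadjusted p under 0.05. In order of fold change, from the most negative, it was number 6, and 17 of the 181 had a fold change at least as large in either direction.

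For miR-34b-5p the scaled signal was 148, 157 and 175 in the controls and 128, 136, 144 and 143 with IL-6. The groups did not overlap, although the gap between control replicate 1 and the highest IL-6 array was small beside the spread of the controls. The log2 level was 7.32 ± 0.12 (SD, n = 3) in controls and 7.11 ± 0.08 (SD, n = 4) with IL-6. The difference of -0.21 was thus less than 2 SDs of the controls. The shorter probe of 21 bases had 86.1 ± 9.86 units in controls and 71.1 ± 4.55 with IL-6, and its lowest control (76.5) stood just above its highest IL-6 array (76.3). The log2 difference of that probe was -0.27 ± 0.10 (SE). Before scaling the signals were 126, 149 and 175 in controls and 113, 170.4, 153 and 151 with IL-6, which overlapped. With no scaling the log2 fold change was -0.03 ± 0.17 (SE). Of the 181 miRNAs, 19 had IL-6 arrays all below the control arrays (10.5%), these members being 2 of them.

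For miR-34a-5p the scaled signal was 2585, 2525 and 2665 in the controls and 2521, 2595, 2700.1 and 2705 with IL-6. The groups overlapped, with 2 IL-6 arrays above all controls and 1 below them. The log2 level was 11.34 ± 0.04 (SD, n = 3) in controls and 11.36 ± 0.05 (SD, n = 4) with IL-6, a difference within either SD. The shorter probe of 19 bases had a log2 difference of 0.02 ± 0.07 (SE), with overlap. Scaling over all probes gave -0.12 and median-ratio scaling gave -0.0063, so no direction can be read for miR-34a-5p.

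The arrays of the controls and of IL-6 also shared slide columns, and 3 columns held 1 array of each. Within them miR-34c-5p differed by -0.24, -0.25 and -0.27 (log2, IL-6 minus control). miR-34b-5p differed by -0.21, -0.12 and -0.29. For miR-34a-5p the same 3 differences were -0.04, 0.10 and 0.02. The first of these sets was the most even, and the third had both signs. For miR-34c-5p and miR-34b-5p every IL-6 array lay below every control array, so any pairing gives differences below 0. Their signs by column are therefore no further evidence.

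Each probe was printed in 10 spots on an array, which gives the measuring error within an array. The coefficient of variation over spots ran from 1.73% to 11.7% for the 6 probes of the family. The standard error of a probe's mean over its spots was at most 0.05 on the log2 scale. It does not cover the spread between arrays, whose SD in controls was 0.12 for miR-34b-5p and 0.03 for miR-34c-5p. Between 66 and 70 of the 70 spots of a probe over the 7 arrays were used, and none was saturated. For miR-34c-5p the raw spot signal was 167 to 208 units on the longer probe, of which the subtracted background made up 71.0 to 79.6, so its values depend on that subtraction more than those of a bright miRNA.

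To set the miR-34b/miR-34c locus against miR-34a, the log2 difference of 2 members was taken on each array, where the scaling factor cancels. Only the change of this difference is given, since the signals of different probes are not on one scale. Relative to the control mean, the ratio of miR-34c-5p to miR-34a-5p was 97.7%, 104% and 98.9% in the controls and 84.99%, 77.8%, 81.6% and 81.0% with IL-6. The groups did not overlap. On the log2 scale the ratio differed by -0.30 ± 0.04 (SE, SD 0.04 for n = 3 and 0.05 for n = 4), that is 18.7% lower. Unlike the fold change of miR-34c-5p alone, this value was the same with no scaling and with spike-in scaling. That follows from the cancelling and was no test of the value. The ratio does not tell which of the 2 members moved. With no scaling the fold changes were -0.10 for miR-34c-5p and 0.20 for miR-34a-5p, against -0.28 and 0.02 in the main setting.

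The ratio of miR-34b-5p to miR-34a-5p was 92.8%, 101% and 107% of the control mean in the controls and 82.4%, 85.3%, 86.8% and 86.2% with IL-6. Again the groups did not overlap, and the difference was -0.23 ± 0.05 (SE, log2), or 14.8% lower. For miR-34b-5p over miR-34c-5p the difference was 0.07 ± 0.07 (SE, log2) and the groups overlapped. The pair from 1 transcript thus did not differ from each other beyond their spread, but their probes may not measure them separately. All 4 combinations of a miR-34c-5p probe with a miR-34a-5p probe gave ratios without overlap, with log2 differences of -0.27, -0.27, -0.30 and -0.30. The normexp background correction, which changes dim signals most, also added an offset of 50 units. Such an offset shrinks log2 differences of dim signals more than those of bright ones. With it the difference for miR-34c-5p over miR-34a-5p was -0.13 ± 0.12 (SE). The effects of offset and correction were not separated.

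**Figure D2:**
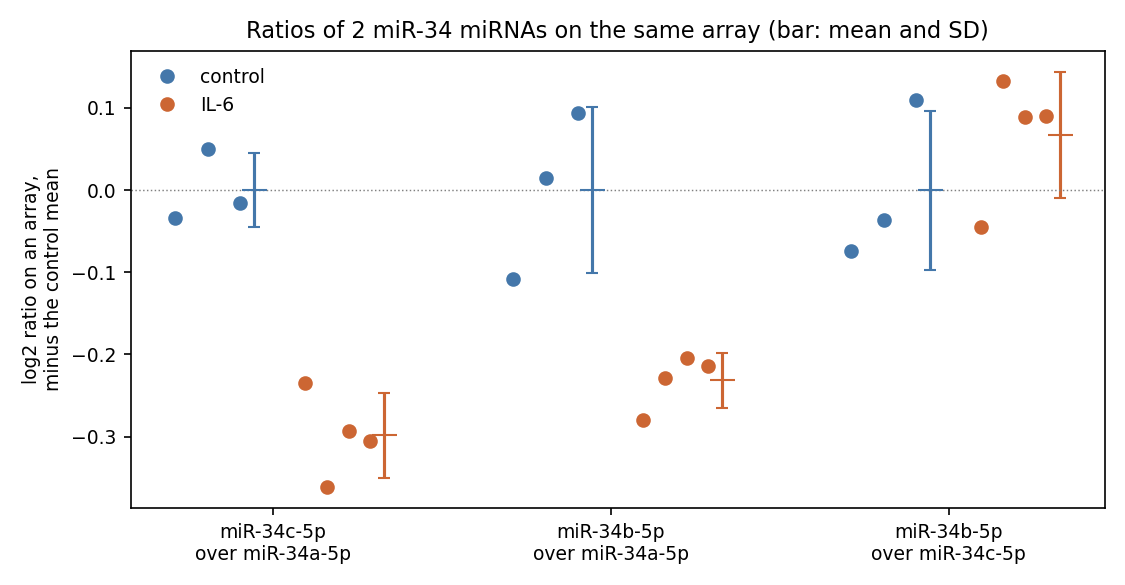
Log2 ratio of 2 family members on the same array, minus the mean of the 3 control arrays, for the 3 pairs. Points are arrays (3 control, 4 IL-6), and the bars beside them give mean and SD. The 4 IL-6 arrays lie between -0.36 and -0.23 for miR-34c-5p over miR-34a-5p and between -0.28 and -0.20 for miR-34b-5p over miR-34a-5p, below all controls, and overlap the controls for miR-34b-5p over miR-34c-5p.

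**Figure D3:**
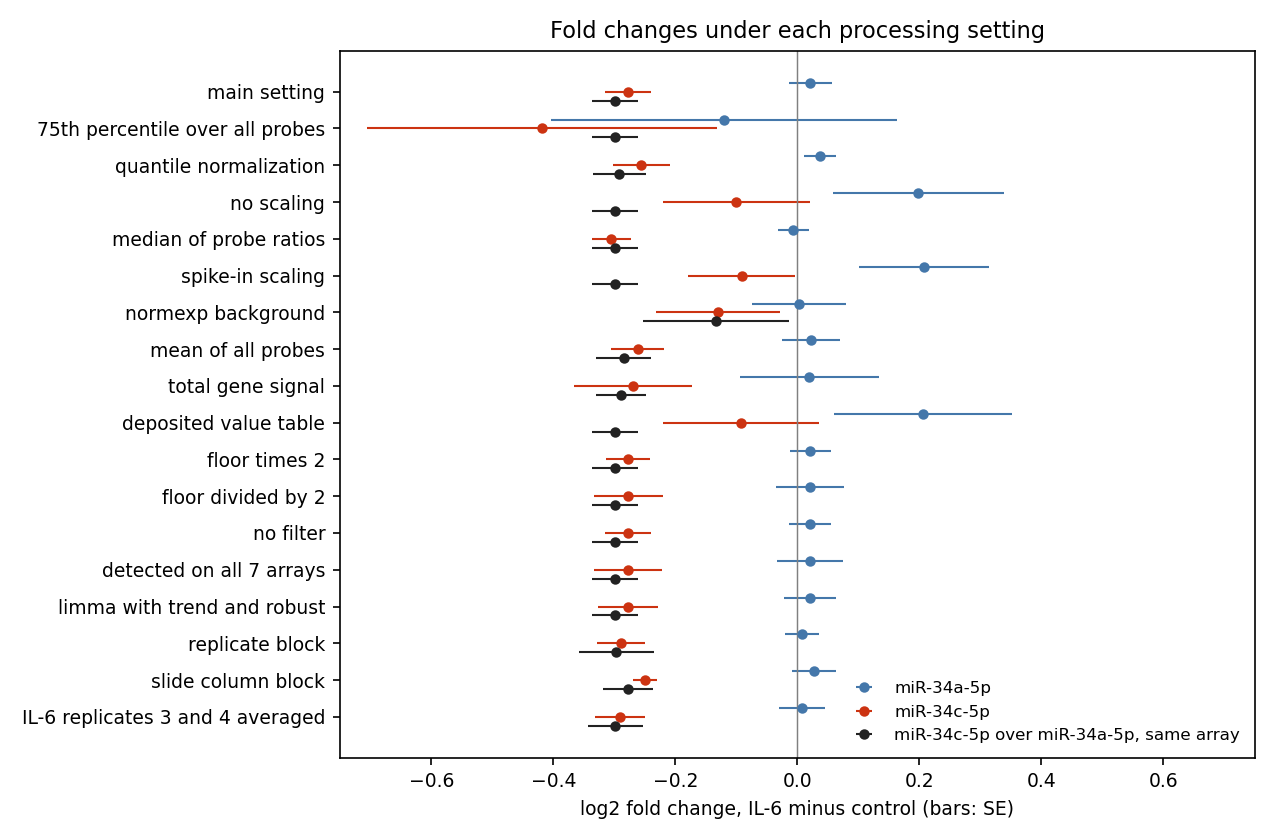
Log2 fold change (IL-6 minus control, bars are SE) of miR-34a-5p, of miR-34c-5p and of their ratio on the same array, under the main setting and 17 other settings of scaling, background, filter, floor and fit. The red points for miR-34c-5p move between -0.42 and -0.09 while the black points for the ratio stay between -0.30 and -0.28 except for normexp background, at -0.13. The points for miR-34a-5p move between -0.12 and 0.21. An array's scaling factor cancels in the ratio, so settings that change only that factor cannot move it.

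The other arm of each hairpin was read where it could be. miR-34a-3p, the strand opposite miR-34a-5p, was detected on all 7 arrays but was dim. Its log2 levels were 4.65, 4.65 and 4.61 in controls and 4.78, 4.72, 4.62 and 4.59 with IL-6, which overlapped. The fold change was 0.04 ± 0.05 (limma, Benjamini-Hochberg adjusted p = 0.750). Its second probe, of 17 bases, was well above background on 1 array only. miR-34b-3p and miR-34c-3p were detected on no array, with probe signals of at most 8.47 and 0.454 units, so the shared transcript was read through its 5p arms alone. The seed relatives miR-449a-5p, at most 4.73 units, and miR-449c-5p, never above 0, were detected on no array either.

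Other miRNAs tied to p53 were taken as 2 lists, also drawn up with earlier results of these data known. The first held 12 miRNAs that p53 is known to induce or whose processing it promotes, of which 11 were matched, 7 were tested and 4 (miR-215, miR-200c-3p, miR-141-3p and miR-205) were detected on no array. Of the 7, none passed the limma test in either direction and 2 had an unadjusted p under 0.05, a share near the 27.1% of all tested miRNAs. The fold changes were positive in 3 and negative in 4. Their median was -0.08, against 0.02 over all 181 tested miRNAs. The levels of miR-143-3p, a miRNA of smooth muscle and fibroblasts, gave -0.13 ± 0.08 (limma, adjusted p = 0.420), those of miR-22-3p -0.10 ± 0.04 (adjusted p = 0.154) and those of miR-16-5p, which targets cyclin messages, 0.07 ± 0.06 (adjusted p = 0.599). The groups did not overlap for 2 of the 7, miR-22-3p and miR-107-3p, with IL-6 lower in both. Over all 181 tested miRNAs, 19 (10.5%) had IL-6 arrays all below the control arrays. A list of 7 is too short to set its share against that one. miR-107-3p was named after its values were seen (-0.14 ± 0.05, limma, adjusted p = 0.149). With no scaling, spike-in scaling or the value table, the fold change of miR-22-3p was positive, at 0.073 to 0.081. The list ran from -0.14 to 0.08.

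The second list was the cluster that runs from miR-17 to miR-92a, which promotes proliferation and which p53 represses. All 6 of its listed miRNAs were tested, none passed, and 1 had an unadjusted p under 0.05, against 27.1% of all tested miRNAs. That 1 was miR-92a-3p, named after its values were seen, which was higher with IL-6 (0.15 ± 0.06, limma, adjusted p = 0.154). The fold changes were positive in 3 and negative in 2, and 1 (miR-18a-5p) was at the floor on every array. Their median was 0.0008, with a range of -0.11 to 0.15. miR-19b-3p had -0.11 ± 0.07 (limma, adjusted p = 0.381), miR-20a-5p 0.02 ± 0.07 (adjusted p = 0.909) and miR-17-5p 0.002 ± 0.07 (adjusted p = 1.0).

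**Figure D4:**
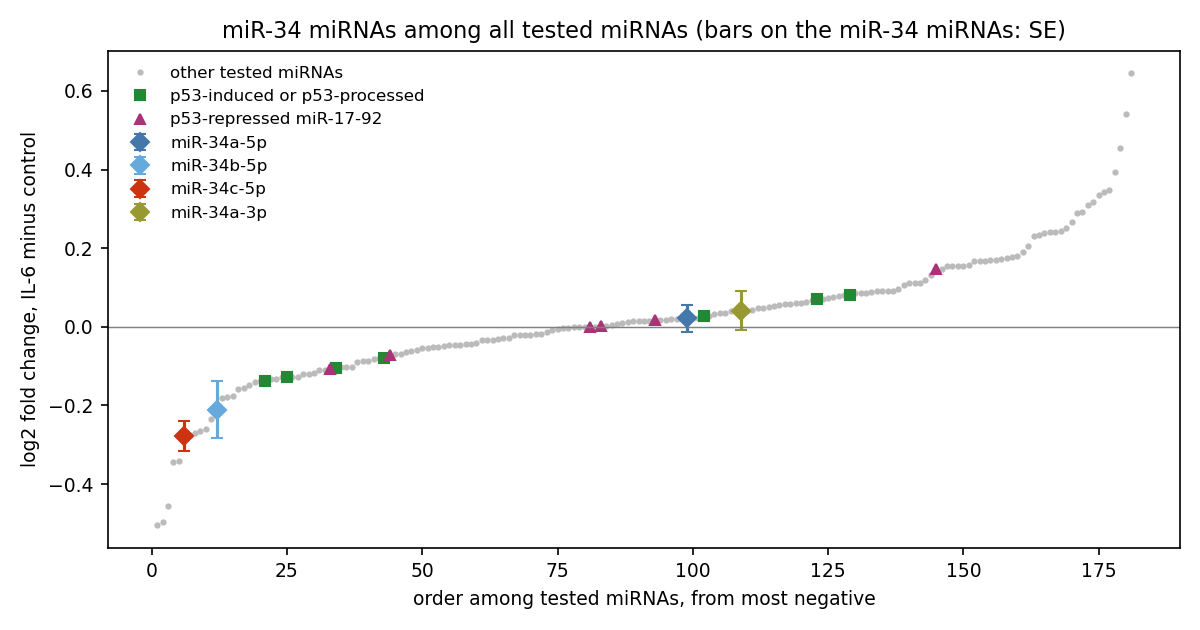
Log2 fold changes (IL-6 minus control) of the 181 tested miRNAs in order, with the miR-34 miRNAs as diamonds with SE bars and the 2 p53 lists as squares and triangles. miR-34c-5p and miR-34b-5p stand at positions 6 and 12 from the negative end, miR-34a-5p at 99 and miR-34a-3p at 109, and the listed miRNAs lie between -0.14 and 0.15.

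The miRNAs whose levels over the 7 arrays were most like each member were found by the root mean square difference of log2 levels centred on their mean, among 156 candidates above the floor on every array. For miR-34c-5p they were miR-1949 (0.041), miR-210-3p (0.063) and miR-324-3p (0.072), against a median of 0.180 over the candidates. miR-34b-5p was number 8 in that order (0.080) and miR-34a-5p number 52 (0.154). For miR-34b-5p they were miR-27b-3p (0.059), miR-19b-3p (0.062) and miR-1949 (0.062), with miR-34c-5p as number 10. For miR-34a-5p they were miR-125a-5p (0.025), miR-10b-5p (0.033) and miR-434-3p (0.034), with miR-34b-5p as number 104 and miR-34c-5p as number 113. Thus miR-34b-5p and miR-34c-5p were nearer to each other than either was to miR-34a-5p. This is a description over arrays that share their scaling and probes that may share signal. Since the measure includes the difference between the groups, miRNAs near a member must have a fold change near its own.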

How the data were processed

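Total RNA of the 7 samples was Cy3-labelled, and each sample had its own 1-colour Agilent rat miRNA array, per the labels' protocols. Spot intensity values were deposited by the authors as scanner files. Per the file headers, the software was Feature Extraction 10.10.1.1. The signal used was background-subtracted and linear, and arrays were not yet scaled to each other. Set beside those files, the deposited value table held their total probe signal (tolerance 0.001 on all 15095 spots of each array), so it too is linear and unscaled.

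Control spots and outlier spots (2.88% to 3.84% of spots per array) were left out, and the spots of a probe were averaged. Each array was scaled by its 75th percentile over 268 probes, given a floor of 15.7 intensity units and then log2-transformed. The brightest probe stood for a miRNA. Testing required detection on all arrays of either group, and 181 of 719 miRNAs met this. limma 3.58.1 (lmFit, eBayes) in R 4.3.3 compared IL-6 with control, with Benjamini-Hochberg adjustment over the 181 and a threshold of 0.05. The code was tested on simulated data with no planted change or with a change larger than any seen here. That test does not cover changes as small as those of the members. The small number of arrays limits the precision. No p is printed for the 3 members. The members and all lists were chosen with earlier results of these data known. Of each p53 list, those past the threshold were named with values, filled up to 3 by mean level, besides all 3 members, the other arms and the nearest 3 miRNAs of each member. Alternatives were other scalings, background, floors, filters and blocks, other ways to summarise probes, and leaving out each array.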

Additional observations from a re-analysis of the deposited data

Results flagged for a closer look

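miR-145-5p, a smooth muscle miRNA in the list of p53-processed miRNAs, had a log2 level of 9.55 on IL-6 replicate 1 against 9.23 to 9.28 on the other IL-6 arrays, a gap of 0.841 of the group's range, which is past Dixon's 95% critical value. It was the only such case among 22 quantities, where chance gives about 1 in 20. The controls ran from 9.26 to 9.52, and the fold change was -0.08 ± 0.10 (limma, Benjamini-Hochberg adjusted p = 0.753).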

How the results depend on the processing

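Over 24 alternatives the fold change of miR-34c-5p was negative in all and passed the limma threshold in 13. That of miR-34b-5p was negative in all 24, but in some by much less than its SE. It was -0.033 (SE 0.17) with no scaling, -0.024 (SE 0.14) with spike-in scaling and -0.026 (SE 0.18) with the value table. miR-34c-5p no longer passed with scaling over all probes (-0.42), no scaling (-0.10), spike-in scaling (-0.091), normexp background (-0.13), total gene signal (-0.27), the value table (-0.093), no filter (-0.28) and slide column as a block (-0.25), nor without control replicate 1 or 2 (-0.30 to -0.25 over all 7 fits without 1 array). miR-34b-5p passed with median-ratio scaling alone (-0.24). miR-34a-5p turned negative with scaling over all probes (-0.12) and median-ratio scaling (-0.0063). It was 0.20 with no scaling, 0.21 with spike-in scaling and 0.21 with the value table. The ratio of miR-34c-5p to miR-34a-5p moved beyond the spread of the arrays with normexp background alone (-0.13) and ran from -0.32 to -0.27 without 1 array. Settings that change only an array's scaling factor cannot move this ratio.

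The count of 9 higher miRNAs became 0 with scaling over all probes, no scaling, normexp background, the value table, no filter and slide column as a block, 4 with spike-in scaling, 3 with total gene signal and 1 with IL-6 replicates 3 and 4 averaged. The count of 8 lower became 0 with scaling over all probes, no scaling, spike-in scaling, normexp background, the value table, no filter and slide column as a block, 14 with median-ratio scaling, 2 with total gene signal, 5 with a floor multiplied by 2 and 5 with the averaged pair. Without 1 array the counts ran from 0 to 10 higher and 0 to 7 lower. In limma, between 1 and 52 miRNAs had an unadjusted p under 0.05 in the fits with 0 lower.

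Replicate numbers are shared between the groups, and arrays of the same number correlated at 0.563, -0.10 and 0.382 in their deviations from the group means. Whether the numbers mark pairs cannot be told from these values. The 3 pairs in the same slide column correlated at 0.563, 0.140 and 0.279, all above 0.1. The pair at 0.563 shares both number and column. Pairs that share neither ran from -0.54 to 0.19. With the replicate block, 0 miRNAs were higher, 3 were lower, and miR-34c-5p had -0.29 and did not pass. The block leaves fewer arrays and degrees of freedom, and the cause of the other changes was not tested.

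Values near 0 changed sign. miR-34a-3p had -0.10 with scaling over all probes and -0.012 with quantile normalization, and was at the floor on every array when the floor was multiplied by 2. With no scaling, spike-in scaling and the value table, miR-143-3p had 0.051, 0.059 and 0.058, miR-22-3p 0.073, 0.081 and 0.080, and miR-19b-3p 0.070, 0.078 and 0.077. With scaling over all probes, miR-16-5p had -0.071, miR-20a-5p -0.12 and miR-17-5p -0.14. With median-ratio scaling, the replicate block and the averaged pair, miR-20a-5p had -0.010, -0.019 and -0.0074 and miR-17-5p -0.026, -0.034 and -0.018. miR-17-5p had -0.039 with quantile normalization and -0.0047 with slide column as a block. Without 1 array miR-20a-5p ran from -0.023 to 0.064 and miR-17-5p from -0.034 to 0.055. miR-34b-5p, miR-34c-5p and miR-34a-3p are dim, so background subtraction weighs more on their values than on those of a bright miRNA. Their SE from limma was 0.07, 0.04 and 0.05 in the main setting, against 0.04 for the bright miR-34a-5p. With the floor divided by 2 the SE was 0.057 for miR-34c-5p and 0.055 for miR-34a-5p, at unchanged fold changes. With only miRNAs detected on all 7 arrays it was 0.055 and 0.054. Whether dimness limits the precision of the dim miRNAs was not tested.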
